A study of Homo sapiens with 52 samples.

Results

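BET proteins, HEXIM1 and the elongation kinase P-TEFb were followed through 52 RNA-seq samples of fusion-positive rhabdomyosarcoma (FP-RMS), a childhood muscle-lineage tumour, most of them exposed to a compound that acts on chromatin. The 9 genes were chosen by name: BRD2, BRD3, HEXIM1, LARP7, CDK9, CCNT1, CCNT2, AFF4 and ELL2, out of 27043 genes listed. Of these, 8 were among the 16359 genes tested, and BRD2 was not, as described below.

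BET proteins are bromodomain readers that bind acetylated histone tails and bring P-TEFb to active genes. P-TEFb is a kinase made of CDK9 and a cyclin T, and it releases paused RNA polymerase II into elongation. A large share of P-TEFb is held inactive by HEXIM1 on the 7SK RNA, which LARP7 stabilises, whereas AFF4 and ELL2 belong to the super elongation complex that works with active P-TEFb. HEXIM1 is widely used as a response gene of BET inhibition.

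The cells were labelled RH4, an FP-RMS line that carries the PAX3-FOXO1 fusion, although titles of the screen samples read RH41. The screen exposed cells for 6 h to 20 compounds, each at a high and a low dose with 1 sample per dose, beside 2 DMSO samples at 0.2% (the solvent of the high dose) and 2 at 0.1%. Most compounds were given at 10 and 1 µM, and LAQ824, Cpd50 and GSKJ4 at 5 and 0.5 µM. By the labelled targets, 7 compounds act on the acetylation axis: bromosporin (bromodomains), SGC-CBP30 (CREBBP/EP300 bromodomain) and the histone deacetylase (HDAC) inhibitors LAQ824 (HDAC), WT161 (HDAC6), MC1568 (HDAC4/5), Merck60 (HDAC1/2) and OJI-1 (HDAC8). A further 11 act on histone methylation. They are UNC1999 (EZH1), EZ-005 (EZH2), SGC0946 (DOT1L), PFI-2 (SETD7), UNC0638 (KMT1C), UNC-1215 (the methyl-lysine reader L3MBTL3), the LSD1 inhibitors GSKLSD1, LSD-519 and LSD-690, and the demethylase inhibitors GSKJ4 (JMJD3/UTX) and Cpd50 (Pan Jumonji). PFI-3 (SMARCA4) and trametinib (MEK1/2) were counted on neither axis here. For PFI-3 this is a choice, since the paper names BRG (SMARCA4) among remodelers that have acetylation-reader domains. Separate experiments held 1 µM N1302, an HDAC inhibitor, with 1 DMSO sample at 6 h, and 1 µM entinostat (HDAC1/2/3) with DMSO at 1, 6 and 24 h, 1 sample each. Values are TPM, the authors' estimate of transcript abundance per length in a library of fixed total, so levels of different genes can be compared. All samples came from cell lines, and nothing in the labels says whether the samples of a group came from separate cultures.

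Depth, worked out from the TPM values as whole reads, ran from 5737939 to 41415071 reads per sample, and between 309 and 15664 of them fell on HEXIM1. It followed the flow cell named in the tables. Bromosporin, SGC-CBP30, WT161, Merck60 and OJI-1 were run on flow cell C5JW5ACXX, whose 28 samples (median 10571890 reads) held no DMSO sample. In 3 samples, bromosporin, Merck60 and PFI-2 at 10 µM, more genes had 2 reads than 1, so their read totals may be too high by up to a factor of 2. TPM is not affected by this. The muscle lineage markers were high in screen DMSO (MYOD1, 640 to 648 TPM), while PTPRC, PECAM1, EPCAM and ALB, markers of other cells, summed to between 0.142 and 3.08 TPM over all samples. That sum was 0.203 to 0.583 TPM in screen DMSO and 0.554 to 2.99 TPM with bromosporin, and its part in the results was not tested. In bulk RNA, fewer cells of a type and less RNA per cell cannot be told apart.

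Before the values, the promoters of HEXIM1 and LARP7 are shown, because of the 8 members tested these 2 had the largest changes under bromosporin and moved in opposite directions. The 250 bases before the start site are printed from RefSeq (build GRCh38.p14, plus strand for both, at chr17:45148225-45148474 and chr4:112636893-112637142, the first of 2 LARP7 starts listed). Capitals mark the letters TATAAA and CCAAT, or CCAAT read on the other strand as ATTGG.

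HEXIM1: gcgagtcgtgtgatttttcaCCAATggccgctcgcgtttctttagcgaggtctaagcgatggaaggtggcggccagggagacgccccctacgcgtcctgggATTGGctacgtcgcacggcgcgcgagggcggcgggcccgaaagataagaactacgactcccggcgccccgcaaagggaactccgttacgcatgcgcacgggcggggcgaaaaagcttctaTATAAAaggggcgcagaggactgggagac

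LARP7: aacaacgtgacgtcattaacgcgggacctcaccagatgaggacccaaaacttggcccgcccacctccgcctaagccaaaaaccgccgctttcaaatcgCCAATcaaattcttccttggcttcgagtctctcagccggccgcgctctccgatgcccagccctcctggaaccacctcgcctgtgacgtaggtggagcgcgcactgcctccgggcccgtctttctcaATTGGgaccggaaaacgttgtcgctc

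The letters TATAAA, searched on both strands, began 29 bases before the HEXIM1 start, the usual place of a TATA box. They were in no other promoter entry of the 8 members that have one, and in 10.7% of the 35116 promoters in the table. CCAAT was in the window of HEXIM1, LARP7, CCNT1 and CCNT2 and in 32.0% of all promoters. The letters TGACGTCA, the binding sequence of CREB-family factors and the same on both strands, were in the LARP7 window and in 1.65% of all promoters. The motifs were picked after the sequences were seen, the matches are of letters only, and no binding was measured.

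In hg19, the build of the tables, HEXIM1 is listed at chromosome 17 from 43224684 to 43229468 on the plus strand, and the GENCODE annotation gives it a single exon from 43225842 to 43229466. LARP7 lies on chromosome 4 from 113558120 to 113578748 (plus strand), CDK9 on chromosome 9 from 130548305 to 130553052 (plus) and CCNT2 on chromosome 2 from 135676392 to 135716915 (plus). CCNT1 lies on chromosome 12 from 49082241 to 49110781 (minus), AFF4 on chromosome 5 from 132211071 to 132299354 (minus), ELL2 on chromosome 5 from 95220802 to 95297775 (minus) and BRD3 on chromosome 9 from 136895446 to 136933141 (minus). All 9 are annotated as protein coding, and a value covers the whole gene, not an exon or isoform.

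BRD2, a BET protein that is widely expressed, was listed at 0 in 27 of the 52 samples and reached at most 0.335 TPM, from 4 reads or fewer. The gene lies on chromosome 6 from 32936437 to 32949282, inside the major histocompatibility region. Of the 233 listed genes of that region, 190 (81.5%) were at 0 in all 52 samples, against 12.6% of all genes, and the tubulin gene TUBB was among them. BRD2 was therefore not measured here in a usable way, and no level or change is given for it.

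In screen DMSO, BRD3 was the most abundant of the other 8 members at 105 to 109 TPM, above 88.1% of the tested genes. CDK9 followed at 70.0 to 72.7 TPM and LARP7 at 54.4 to 62.2 TPM. CCNT1 (41.3 to 46.3), AFF4 (40.8 to 44.03) and HEXIM1 (40.5 to 43.5 TPM) overlapped in range, and all of their samples lay above CCNT2 (33.4 to 37.96). ELL2 was lowest at 11.2 to 13.2 TPM. Between 0.2% and 0.1% DMSO no member differed (limma, adjusted p = 0.511 for HEXIM1, the smallest of the 8). Across all genes limma called 0 of 16359, with 1548 at an unadjusted p below 0.05, and 0 with the replicate number as a block.

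HEXIM1 was raised most by bromosporin. Its level was 414 TPM at 10 µM and 150.2 TPM at 1 µM, against 43.0 and 43.5 TPM in 0.2% DMSO and 40.5 and 41.1 TPM in 0.1% DMSO. Both treated samples lay far above all DMSO samples, and the high dose above the low dose. Over both doses the change was 2.54 on the log2(TPM + 1) scale (SE 0.36, adjusted p = 6.21e-06, limma against the 4 DMSO samples). Relative to DMSO of the same concentration it was 3.23 at 10 µM and 1.85 at 1 µM.

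LAQ824 was the other compound under which HEXIM1 was called. Its HEXIM1 level was 125.8 TPM at 5 µM and 129.9 TPM at 0.5 µM, so both doses stood about equally far above DMSO. The log2 change was 1.58 (SE 0.36, adjusted p = 0.000414). LAQ824 shared flow cell H144EBGXX with 1 DMSO sample of each concentration, and against those alone the change was 1.57 (adjusted p = 0.00336).

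SGC-CBP30 and WT161 had high HEXIM1 levels at 10 µM only. With SGC-CBP30, HEXIM1 was at 133 TPM at 10 µM and 47.8 TPM at 1 µM. With WT161 it was at 100.3 and 48.2 TPM. All 4 values were above the DMSO range, the low doses by a small margin. The average over doses did not pass the threshold for SGC-CBP30 (0.91, SE 0.36, adjusted p = 0.107) or for WT161 (0.72, adjusted p = 0.111). This SE is the same for every compound and includes the differences between doses, so it does not measure replicate error at 10 µM. With the 7 methylation-axis compounds of the same flow cell as reference in place of DMSO, both passed (1.16, adjusted p = 0.0122, and 0.97, adjusted p = 0.0123).

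The remaining HDAC inhibitors of the screen left HEXIM1 near or below DMSO. With MC1568 it was at 49.0 and 42.3 TPM, with Merck60 at 34.5 and 36.0 TPM and with OJI-1 at 34.1 and 33.9 TPM, high dose first. None of these was called (adjusted p = 0.838 to 0.875), although with Merck60 and DMSO alone in the fit HEXIM1 was called as lower (-0.25, adjusted p = 0.0224). Most samples of that fit are DMSO samples, none of them from the flow cell of Merck60, so its p-value does not allow for flow cell. Merck60 and OJI-1 were run on flow cell C5JW5ACXX, which held no DMSO and where methylation-axis samples had a median of 33.2 TPM. Compound and flow cell cannot be told apart in their values below DMSO. The 95% intervals of the log2 change were -0.62 to 0.85 for MC1568, -0.98 to 0.49 for Merck60 and -1.03 to 0.43 for OJI-1, so a rise as large as under bromosporin lay outside each of them.

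**Figure D1:**
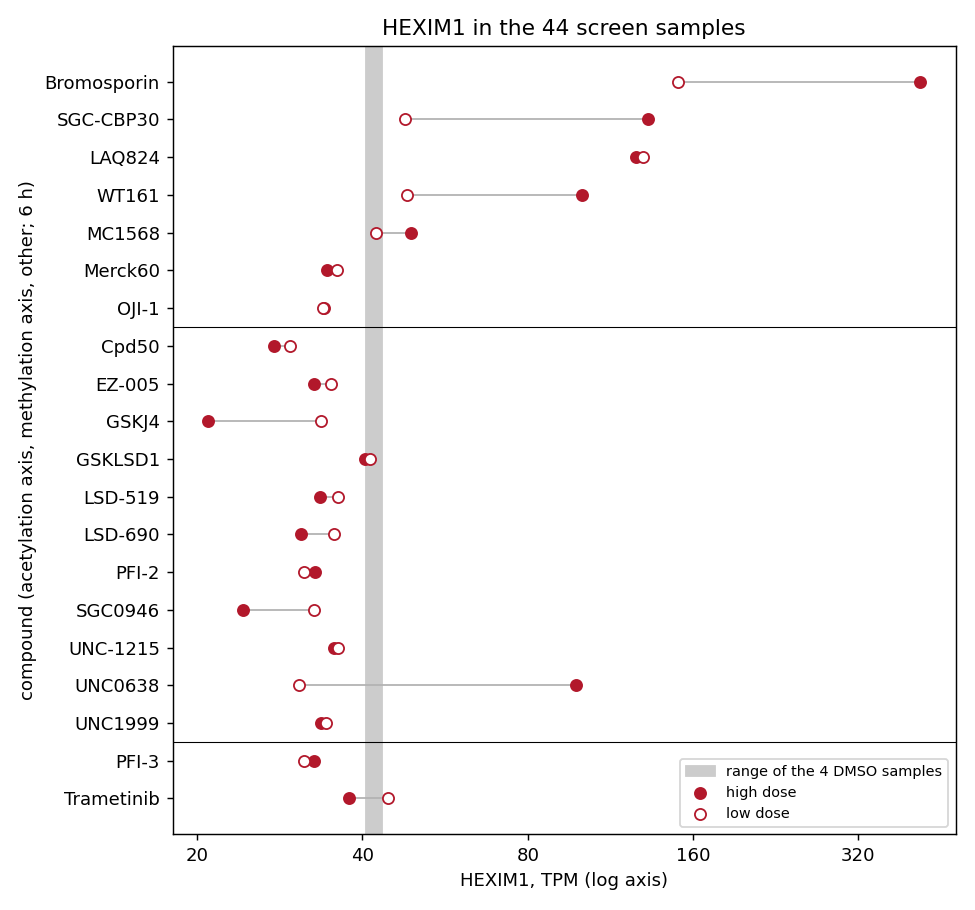
HEXIM1 in TPM (log axis) for each compound of the screen at the high dose (filled) and the low dose (open), 1 sample per point, with the range of the 4 DMSO samples as a grey band. Bromosporin stands at 414 and 150.2 TPM, LAQ824 at about 130 TPM at both doses, and most methylation-axis compounds lie left of the band.

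Among the 11 methylation-axis compounds HEXIM1 lay below the DMSO range at both doses in 9, and no compound lay above it at both. The exception at the high dose was UNC0638 (labelled KMT1C), with 98.1 TPM at 10 µM and 30.6 TPM at 1 µM. Without UNC0638 the other 20 samples of this axis ran from 20.9 to 41.3 TPM with a median of 33.5 TPM. On flow cell C5JW5ACXX the median over 14 methylation-axis samples was 33.2 TPM, and a difference between flow cells and an effect of these compounds cannot be told apart there. None of the 11 was called for HEXIM1 in the fit of the whole screen. When each compound was fitted with DMSO alone, HEXIM1 was called as lower in 8 of them. Their log2 changes were -0.56 to -0.22 (limma, adjusted p = 0.000809 to 0.0368). PFI-3, on neither axis, was also called as lower in such a fit (-0.38, adjusted p = 0.0181). Most samples of such a fit are DMSO samples, which differed little once flow cell was allowed for. Its p-value may therefore not measure differences between cultures. Most of the 8 were run on flow cell C5JW5ACXX, which held no DMSO sample, so their p-values do not allow for it. The share of all genes called in these fits is not given here.

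LARP7, the 7SK-binding protein that keeps the RNA stable, moved the other way. With bromosporin it was at 13.9 TPM at 10 µM and 31.8 TPM at 1 µM, both below the 54.4 to 62.2 TPM of DMSO. The log2 change was -1.42 (SE 0.19, adjusted p = 3.4e-06). LARP7 also fell with LAQ824 (36.2 and 34.3 TPM, log2 change -0.71, adjusted p = 0.00194) and with WT161 (32.0 and 37.2 TPM, -0.74, adjusted p = 0.00243). With SGC-CBP30 it was at 47.2 and 70.9 TPM, on either side of the DMSO range, and was not called (-0.01, 95% interval -0.39 to 0.38). Over all 22 methylation-axis samples LARP7 ran from 48.2 to 85.5 TPM.

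Of the P-TEFb subunits themselves, few were called in the fit of the whole screen. CDK9, the kinase, was at 88.8 and 82.3 TPM with bromosporin, above every DMSO sample. Its log2 change of 0.26 did not pass there (limma, adjusted p = 0.0888). With the methylation-axis compounds of the same flow cell as reference CDK9 was called as higher with bromosporin. The same held after the median scaling described below. CDK9 fell with Cpd50, a pan-Jumonji inhibitor (49.0 and 51.3 TPM, -0.50, adjusted p = 0.00658), and with UNC0638 (42.0 and 57.2 TPM, -0.53, adjusted p = 0.00301). CCNT1, its main cyclin, was at 67.6 and 59.4 TPM with bromosporin (0.50, limma, adjusted p = 0.0538). That rise was called after the median scaling but not with the flow-cell reference. In the fit of the whole screen CCNT1 was called with UNC0638 only. There it was at 129 TPM at 10 µM but 43.4 TPM at 1 µM, within the DMSO range (0.74, adjusted p = 0.0122). CCNT2, the alternative cyclin, was at 32.3 and 45.96 TPM with bromosporin, on either side of DMSO (0.13, adjusted p = 0.594). It fell with LAQ824 to 19.8 and 20.02 TPM, below the 33.4 to 37.96 TPM of DMSO (-0.79, adjusted p = 0.000411). CCNT2 rose with MC1568 (47.6 and 50.9 TPM, 0.47, adjusted p = 0.0417), a call that was lost against DMSO of the same flow cell (adjusted p = 0.169) and without 3 of the 4 DMSO samples in turn (adjusted p = 0.0621 to 0.0789).

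The super elongation complex members were called as higher with the same 3 compounds as each other. Values above all DMSO samples at both doses were more widespread. AFF4 had them in 13 of the 20 compounds, 6 of the 11 on the methylation axis among them. ELL2 had them in 7 of the 20, with 1 on the methylation axis. Such values were not particular to this complex, since CCNT1 also lay above DMSO at both doses in 12 compounds and BRD3 below it in 11. The share over all genes is not given here. Most of the 13 AFF4 compounds were run on flow cell C5JW5ACXX, which held no DMSO sample. Compound and flow cell cannot be told apart in those. ELL2, an elongation factor, was at 44.9 and 19.4 TPM with bromosporin against 11.2 to 13.2 TPM in DMSO, a log2 change of 1.18 (SE 0.25, adjusted p = 0.000398). With LAQ824 it was at 30.3 and 28.9 TPM (1.18, adjusted p = 0.000186) and with WT161 at 35.3 and 22.3 TPM (1.11, adjusted p = 0.000781). These 6 samples were all above DMSO. AFF4, the scaffold of the complex, was at 83.3 and 56.2 TPM with bromosporin, against 40.8 to 44.03 TPM in DMSO (0.67, adjusted p = 0.0038). It was at 66.7 and 64.1 TPM with LAQ824 (0.61, adjusted p = 0.0055) and at 70.9 and 67.2 TPM with WT161 (0.69, adjusted p = 0.00362). With SGC-CBP30 at 10 µM, ELL2 was at 17.8 TPM and AFF4 at 62.7 TPM, and neither was called over both doses.

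BRD3, the BET gene among the members with a usable value, fell with some HDAC inhibitors and not with bromosporin. With bromosporin it was at 129.95 and 113 TPM, above the 105 to 109 TPM of DMSO. The log2 change of 0.18 did not pass (limma, adjusted p = 0.18). With the methylation-axis compounds of the same flow cell as reference, BRD3 was called as higher with bromosporin. It fell with LAQ824 to 62.3 and 65.9 TPM (-0.73, SE 0.11, adjusted p = 2.14e-06) and with WT161 to 69.5 and 74.2 TPM (-0.57, adjusted p = 0.000152). It also fell with UNC0638, to 48.8 and 70.6 TPM (-0.85, adjusted p = 7.06e-05). The 3 calls with UNC0638, of CDK9, CCNT1 and BRD3, were lost when that compound and DMSO alone were fitted (adjusted p = 0.0935, 0.301 and 0.0627, in that order). The fall with OJI-1 (90.5 and 67.2 TPM, -0.45, adjusted p = 0.0376) was not called when any 1 DMSO sample was left out (adjusted p = 0.0717 to 0.0918).

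**Figure D2:**
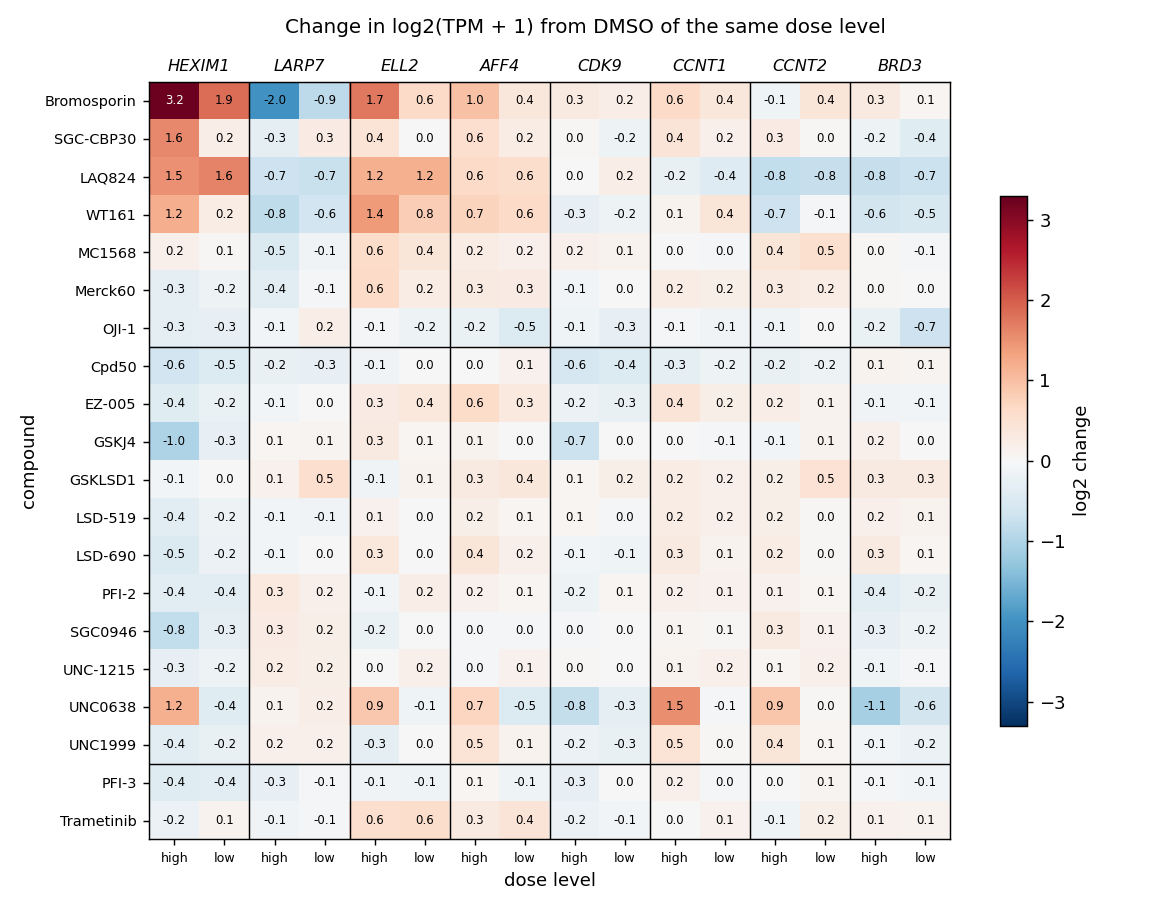
Change in log2(TPM + 1) from the mean of the 2 DMSO samples of the same dose level, for 8 members at the high and low dose of each of the 20 compounds, 1 sample per cell, with red for higher and blue for lower. Bromosporin has 3.23 and 1.85 for HEXIM1 and -1.99 and -0.85 for LARP7, and LAQ824 has nearly equal values at both doses.

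Counted over the members, 4 of 8 were called with bromosporin, 3 up and 1 down, where 46.0% of all tested genes were called. LAQ824 had 6 of 8 (60.5% of all genes), WT161 4 of 8 (41.8%) and SGC-CBP30 0 of 8 (9.84%). UNC0638 had 3 of 8 (25.2%), and MC1568 (33.2%), OJI-1 (1.22%) and Cpd50 (11%) had 1 of 8 each. Merck60 had 0 of 8 (0.648%), and in the other 11 compounds none of the 88 tests of members was called, where 2.18% of all tests were. With 8 genes, shares this near to those over all genes are no result about the members as a group. The median log2 change of the members under bromosporin was 0.38, against -0.12 over all tested genes. At 10 µM, bromosporin shifted the median of 6316 genes that were abundant in every sample by -0.24, and after scaling to that median 7 members were called, with BRD3, CCNT1 and CDK9 as additional rises. The share of all genes called after that scaling is not given here, so the 7 are no result about the members as a group. At 1 µM alone, HEXIM1 was the single member called with bromosporin.

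Bromosporin was then compared with the 5 acetylation-axis compounds that had the same doses. HEXIM1 was higher with bromosporin than with SGC-CBP30 by 1.63 on the log2 scale (95% interval 0.79 to 2.48, adjusted p = 0.00536), where 26.0% of all genes were called. It was higher than with WT161 by 1.83 (0.98 to 2.67, adjusted p = 0.00124, 31.7% of genes), than with MC1568 by 2.43 (adjusted p = 2.81e-05, 51.8%), than with Merck60 by 2.79 (adjusted p = 2.29e-05, 40.2%) and than with OJI-1 by 2.84 (adjusted p = 2.05e-05, 40.3%). MC1568 was run on flow cell H144EBGXX and the other 4 on that of bromosporin, so in the comparison with MC1568 compound and flow cell cannot be told apart. LARP7 was lower with bromosporin in all 5 comparisons, from -0.68 against WT161 (adjusted p = 0.0164) to -1.49 against OJI-1 (adjusted p = 2.05e-05).

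The other members differed less evenly. ELL2 was higher with bromosporin than with SGC-CBP30 (0.96, adjusted p = 0.0154), MC1568 (0.68, adjusted p = 0.0488), Merck60 (0.74, adjusted p = 0.0395) and OJI-1 (1.30, adjusted p = 0.000904). Against WT161 the ELL2 difference was 0.07 with an interval of -0.51 to 0.66 (adjusted p = 0.894), and that of AFF4 was -0.01 with an interval of -0.44 to 0.42 (adjusted p = 0.999). BRD3 was higher with bromosporin than with WT161 (0.75, adjusted p = 5.23e-05), OJI-1 (0.63, adjusted p = 0.00037) and SGC-CBP30 (0.46, adjusted p = 0.00844). CDK9 was higher than with WT161 (0.48, adjusted p = 0.011) and OJI-1 (0.46, adjusted p = 0.0109). AFF4 was higher than with OJI-1 alone (1.01, adjusted p = 0.000592). CCNT1 and CCNT2 passed in none of the 5 comparisons. LAQ824 was given at other doses and is not set against bromosporin in a test.

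**Figure D3:**
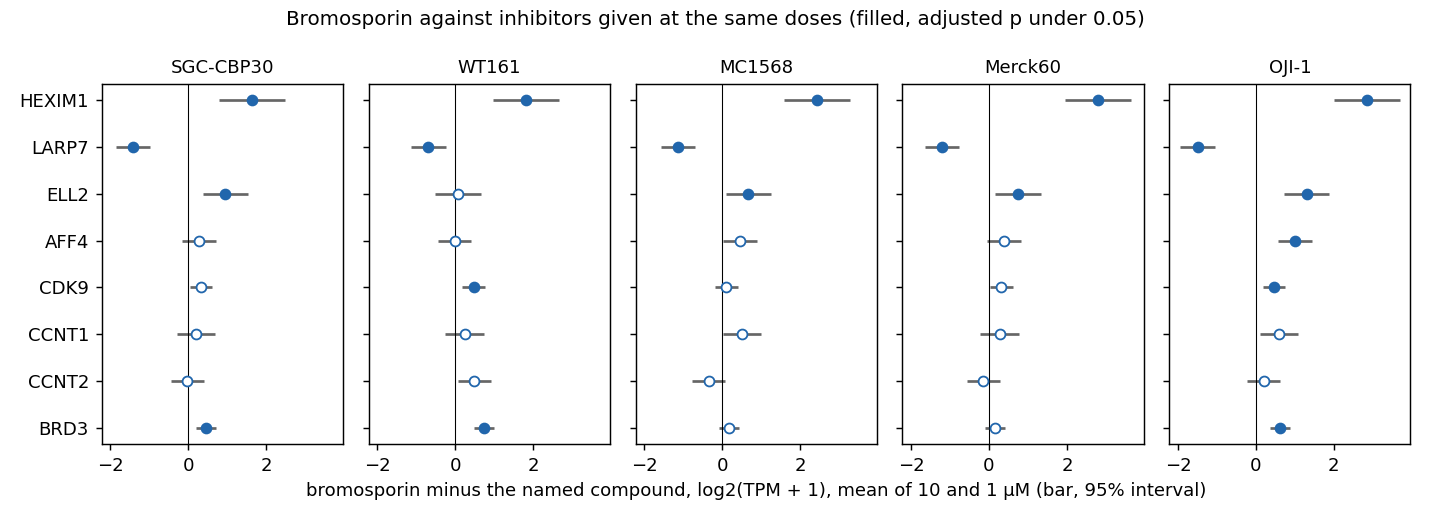
Difference between bromosporin and each of 5 compounds given at 10 and 1 µM, in log2(TPM + 1) averaged over both doses, for 8 members (points, limma estimates; bars, 95% intervals; filled points, adjusted p below 0.05). HEXIM1 lies between 1.63 and 2.84 and LARP7 between -1.49 and -0.68, away from zero in every panel.

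Across the whole screen, the 7 acetylation-axis compounds were compared with the 11 methylation-axis compounds, with the compound as the unit. HEXIM1 was higher on the acetylation axis by 1.05 (SE 0.30, adjusted p = 0.0568), LARP7 lower (-0.57, adjusted p = 0.0569) and ELL2 higher (0.56, adjusted p = 0.0588), none of them past the threshold. Limma called 0 of 16359 genes in this comparison (0.0%), with 5018 at an unadjusted p below 0.05. That 0 depended on single compounds, since 2503, 2673 and 3056 genes were called without MC1568, Merck60 or OJI-1, and HEXIM1 passed in each case (1.16, 1.22 and 1.23, adjusted p = 0.0278, 0.0181 and 0.0157). With the high dose alone HEXIM1 passed (1.34, adjusted p = 0.0447), as did 1614 genes in all. With flow cell as a covariate the HEXIM1 difference was 0.98 (adjusted p = 0.365), and within flow cell C5JW5ACXX 0.98 (adjusted p = 0.261).

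Entinostat, a benzamide HDAC inhibitor, was followed over time with 1 sample per point. A single time has no replicate, the values are given without a test, and intervals cover counting error only. HEXIM1 was at 20.8 TPM after 1 h, 39.9 TPM after 6 h and 94.6 TPM after 24 h, against 21.6, 26.0 and 27.9 TPM in DMSO of the same times. The ratio to DMSO was 0.96 (95% exact binomial interval of the reads, 0.88 to 1.05) at 1 h, 1.54 (1.44 to 1.64) at 6 h and 3.39 (3.21 to 3.58) at 24 h. ELL2 had the largest ratio of the members at 24 h. It was at 9.54, 22.2 and 75.5 TPM, against 9.05, 8.37 and 8.55 TPM in DMSO, ratios of 1.05 (0.94 to 1.18), 2.65 (2.41 to 2.92) and 8.83 (8.15 to 9.58).

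LARP7 was lower than DMSO at 6 h (61.2 against 94.3 TPM) and at 24 h (81.0 against 99.997 TPM) but not at 1 h (107 against 107.5 TPM). BRD3 was at 36.0 TPM at 24 h against 60.8 TPM, a ratio of 0.59 (0.56 to 0.62), while at 6 h the ratio was 0.94 (0.89 to 0.98). CCNT2 had ratios of 0.83 (0.78 to 0.87) at 6 h and 0.66 (0.63 to 0.70) at 24 h. CDK9 was at 74.3 TPM at 24 h against 51.4 TPM. CCNT1 stayed between 27.8 and 34.5 TPM with entinostat and between 29.9 and 38.9 TPM with DMSO. A log2 change of at least 1 in size was reached by 0 of 8 members at 1 h, by 1 at 6 h (ELL2) and by 2 at 24 h (ELL2 and HEXIM1), where 1.24%, 6.08% and 22.4% of all tested genes reached it. Against both 6 h DMSO samples outside the screen, the 6 h change of HEXIM1 was 1.05 in place of 0.60 and that of ELL2 0.598 in place of 1.31, so which of them reached the limit depended on the control.

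N1302 had 44.3 TPM of HEXIM1 after 6 h against 13.5 TPM in its DMSO, a ratio of 3.29 (3.00 to 3.61). That DMSO sample was itself lower than the time course's DMSO at 6 h (26.0 TPM), and against both together the log2 change was 1.20 in place of 1.65. LARP7 was at 31.5 against 68.7 TPM, CCNT2 at 6.38 against 21.5 TPM, CCNT1 at 20.7 against 48.7 TPM, BRD3 at 21.2 against 52.3 TPM and AFF4 at 27.6 against 56.6 TPM, all lower with N1302. ELL2 was at 34.8 against 24.0 TPM, a log2 change of 0.51 that became 1.22 against both DMSO samples. In all 6 of 8 members passed a log2 change of 1 in size, as did 30.9% of tested genes. Of these members AFF4 was nearest the limit (-1.01). N1302 shifted the median of the 6316 abundant genes by -0.33, which is not taken out of these values. AFF4 was higher than DMSO with LAQ824 and WT161 at 6 h and lower with N1302 at 6 h, in experiments with different controls. Titles of the screen DMSO samples read RH41 and that of the N1302 DMSO sample RH4. Whether the cell line differed was not tested.

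**Figure D4:**
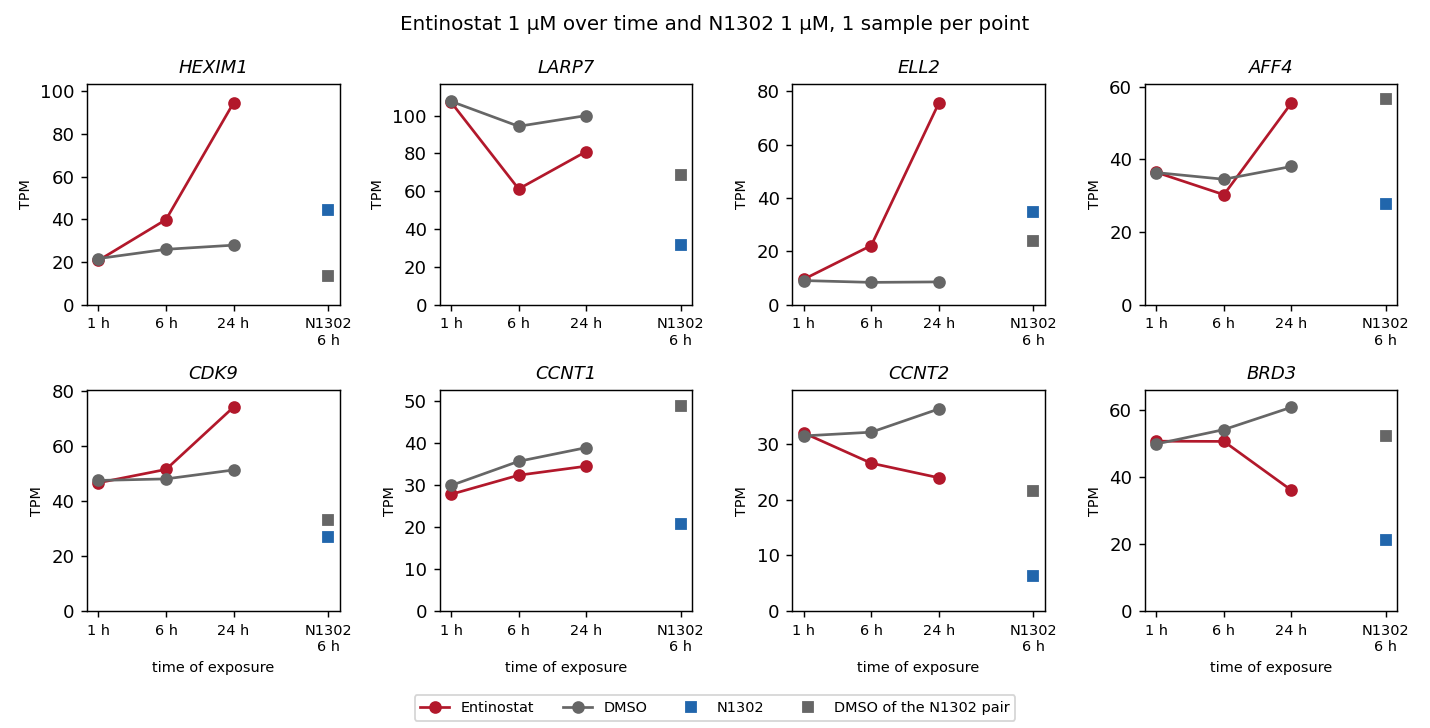
TPM of 8 members after 1, 6 and 24 h of 1 µM entinostat (red) and DMSO (grey circles), and after 6 h of 1 µM N1302 (blue square) and its own DMSO (grey square), 1 sample per point. HEXIM1 reaches 94.6 TPM and ELL2 75.5 TPM after 24 h of entinostat, while their DMSO values stay at or below 27.9 and 9.05 TPM.

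Related genes of the same machinery were counted from a list of 29 genes with a row in the tables, 27 of which were tested. With bromosporin, 6 rose and 8 fell, 14 of 27 where 46.0% of all tested genes were called. All 3 pausing factors called (NELFCD, NELFA and NELFB, subunits of the negative elongation factor) fell, by 1.55, 1.02 and 0.81 on the log2 scale (adjusted p = 2.46e-06 to 0.000166). NELFCD was at 59.6 TPM at 10 µM and 154 TPM at 1 µM, against 272 to 290 TPM in DMSO. In the PAF complex list, CTR9 rose (240.2 and 127 TPM against 77.1 to 81.6 TPM, 1.12, adjusted p = 8.32e-06), as did RTF1 and SUPT6H, while LEO1, PAF1 and CDC73 fell. AFF1 and MLLT3 rose and MLLT1 fell in the super elongation complex. MEPCE, the capping enzyme of 7SK RNA, rose (0.74, adjusted p = 0.000301) and HEXIM2, the paralogue of HEXIM1, fell (-0.92, adjusted p = 0.00174). The list median was -0.18, against -0.12 over all genes.

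With LAQ824, 9 of the 27 rose and 10 fell (60.5% of all genes were called), with a median of 0.18 against 0.06 over all genes. MEPCE went the other way than with bromosporin and was at 22.0 and 21.7 TPM against 118 to 131 TPM in DMSO (-2.46, adjusted p = 6.61e-12). CDK12 (-1.33, adjusted p = 8e-08) and CDK13 (-1.12, adjusted p = 2.45e-07), which phosphorylate polymerase during elongation, fell, and CDK7 (1.15, adjusted p = 9.77e-07) and MNAT1 (0.84, adjusted p = 6.52e-06), subunits of the initiation kinase, rose. NELFCD (-1.81), NELFA, LEO1, PAF1, CDC73 and HEXIM2 were among the other falls, and CTR9 (1.10), ELL, AFF1, ELL3, EAF1, SUPT6H and RTF1 were the other rises. With SGC-CBP30 (9.84% of all genes), AFF1 alone was called (16.7 and 10.6 TPM against 7.88 to 8.83 TPM, 0.64, adjusted p = 0.0118). WT161 had 10 up and 8 down (41.8% of all genes), MC1568 2 up and 6 down (33.2%), and Merck60 (0.648%) and OJI-1 (1.22%) had 0 of 27.

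A second list held 3 further genes known to rise under BET inhibition. With bromosporin (46.0% of all genes called) all 3 rose: HIST2H2BE, a histone gene with a polyadenylated transcript, from 9.19 to 12.7 TPM in DMSO to 127 and 51.4 TPM (2.75, adjusted p = 2.39e-06), ZCCHC24 by 0.88 and SERPINI1 by 0.58 (adjusted p = 0.000151 for both). With LAQ824 (60.5%), SERPINI1 (1.42, adjusted p = 1.16e-10) and ZCCHC24 (1.12, adjusted p = 2.12e-06) rose, and HIST2H2BE was not called. WT161 (41.8%) had 2 of the 3 up, MC1568 (33.2%) had 1, and SGC-CBP30 (9.84%), Merck60 (0.648%) and OJI-1 (1.22%) had none called. With SGC-CBP30, HIST2H2BE was at 43.2 TPM at 10 µM and 10.3 TPM at 1 µM (0.88, limma, adjusted p = 0.108). ZCCHC24 was at 53.1 and 38.8 TPM against 36.4 to 40.7 TPM in DMSO. SERPINI1 was at 141 and 136 TPM, below the 163 to 171 TPM of DMSO.

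The genes whose changes over the 20 compounds most resembled that of HEXIM1, by Pearson's r of the compound means, were ZSWIM6 (r = 0.96), PELI1 (r = 0.96), HIST1H2BD (r = 0.95), SLC2A13 (r = 0.95) and HBA1 (r = 0.95). The points share the same DMSO samples. HEXIM1 changed most with bromosporin (2.54) and LAQ824 (1.58), which weigh most in r, so genes raised by both rank high. HIST1H2BD, a histone gene, went from 29.7 to 33.3 TPM in DMSO to 350 TPM with bromosporin at 10 µM, and PELI1, a ubiquitin ligase, from 22.8 to 23.1 TPM to 101 TPM. SLC2A13 and HBA1 were close to 0 in DMSO and reached 1.63 and 2.09 TPM with bromosporin at 10 µM, so their r rests on low values. Among the members, r with HEXIM1 was 0.82 for ELL2, 0.70 for AFF4 and -0.80 for LARP7, and between -0.31 and 0.46 for the rest.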

How the data were processed

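RNA-seq was analysed from 52 tables. The authors extracted RNA, selected poly-A RNA, mapped the reads with STAR to hg19 and used RSEM for expression, and the submitters' processing notes also name edgeR. The deposited values are TPM, which the authors derived per sample with no pooling of replicates. Members and lists were chosen with earlier results of these data known. Named genes were the 9 members, related genes called with bromosporin, SGC-CBP30 or LAQ824, and the 5 genes most correlated with HEXIM1.

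The 16359 genes that reached a TPM of 1 in at least 2 samples were tested as log2(TPM + 1) with limma 3.58.1 in R 4.3.3 (lmFit, eBayes with trend), in 1 fit of the 44 screen samples. A fold change on this scale understates the change of low genes. A gene was called at a Benjamini-Hochberg adjusted p below 0.05 over all genes. A compound was the mean of its doses against 4 DMSO samples, so its 2 samples are doses and not replicates. After allowing for flow cell, DMSO samples of 1 concentration differed by no more than counting noise (variance ratio 1.03 over 10378 genes). DMSO values are therefore given per sample with no SD and averaged in an alternative. In that alternative the calls of CCNT1 with UNC0638, CCNT2 with MC1568 and BRD3 with OJI-1 were lost.

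Whole reads were worked out from TPM steps common to all samples (tolerance 0.02 reads, 100% of 23645 genes) and served for depth, counting intervals and a voom alternative. Both procedures were tested on simulated data. Alternatives were a pseudocount of 0.1, median-ratio scaling, other filters, single doses, other references, and leaving out DMSO samples or compounds. Other steps used Python 3.11.15 (scipy 1.17.1, pandas 2.3.3, numpy 2.4.6). RefSeq listed promoters for 8 of 9 members, ELL2 being the other. Values of a listed gene that are not reported here by name remain in the counts.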

Additional observations from a re-analysis of the deposited data

Results flagged for a closer look

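AFF4 differed in direction between time points of entinostat. Its log2 TPM ratio to DMSO was -0.19 at 6 h (counting interval -0.25 to -0.12) and 0.55 at 24 h (0.49 to 0.60), and 0.00 at 1 h. Each point is 1 sample against 1 sample, and the difference between times was not tested. No member had an acetylation-axis compound, or a DMSO sample, far enough from the others of its group to be singled out by Dixon's test.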

How the results depend on the processing

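HEXIM1 under bromosporin and LAQ824 kept its direction and call in every alternative run. With the methylation-axis compounds of flow cell C5JW5ACXX as reference HEXIM1 was also called with SGC-CBP30 (1.16) and WT161 (0.97). HEXIM1 with Merck60 changed sign (0.0049). That reference called 6 members with bromosporin, 6 with WT161, 3 with UNC0638 and 1 with SGC-CBP30. These counts stand without the share over all genes and are no result about the members. With the low dose alone, HEXIM1 differences between bromosporin and SGC-CBP30 (1.63), WT161 (1.62) and Merck60 (2.03) lost their call, with a spread borrowed from all samples, HEXIM1 (-0.40) and CCNT1 (-0.072) with UNC0638 changed sign, genes called were 859 with bromosporin, 25 with SGC-CBP30 and 2119 with WT161, and 1 member was called with bromosporin and 1 with WT161. Between axes HEXIM1 passed with the high dose alone (1.34) and without MC1568 (1.16), Merck60 (1.22) or OJI-1 (1.23). It did not pass without bromosporin, LAQ824, SGC-CBP30 or WT161. Requiring a log2 change of at least 1 left 2190 genes with bromosporin, 314 with SGC-CBP30, 4210 with LAQ824 (2 members) and 1747 with WT161 (1 member). Median-ratio scaling called 7 members with bromosporin and 1 with SGC-CBP30, counts that stand without the share over all genes and are no result about the members. It gave HEXIM1 changes of 1.97 with N1302 and 0.72 with entinostat at 6 h. Both 6 h DMSO samples outside the screen as reference gave 1.20 and 1.05. For SGC-CBP30, averaged DMSO called 558 genes, the compound with DMSO alone 3405 genes and 3 members, and leaving out 1 DMSO sample between 1040 and 1261 genes. The cause of these differences was not tested.

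A paired fit of the DMSO samples, with a replicate block, gave HEXIM1 a difference of 0.081 (adjusted p = 0.449), and the numbers mark flow cells (same-number correlation 0.311). The voom fit and DMSO of flow cell C4JM1ACXX for Cpd50 and GSKJ4 were added after seeing the data.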
